A study of Mus musculus with 8 samples.

Results

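The untreated state of MCE301 cells was described from the 2 arrays that the labels title as 0 h with sodium butyrate, out of 8 arrays in the series. MCE301 is a colonic epithelial cell line of the mouse. It was derived from animals that carry a transgene for the large T-antigen of simian virus 40 in a temperature-sensitive form. Every array in the series is of this line, so every group carries the transgene. The other 6 arrays, 2 for each exposure, are of cells kept in 2 mM sodium butyrate for 6, 12 or 24 h. The labels do not give the temperature of culture, the promoter that drives the transgene, or whether arrays of the same time stem from different cultures. The p-values given here therefore measure only how far these particular arrays scatter, and that scatter may be technical. There were no untreated cells at 6, 12 or 24 h, so time in culture and butyrate cannot be told apart in any comparison with the later times.

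The colonic epithelium is a single layer of cells that is renewed from stem cells at the base of the crypts. Cells that leave the base divide further before they stop and mature. They become absorptive colonocytes, mucus-secreting goblet cells, hormone-secreting enteroendocrine cells or chemosensory tuft cells, and each of these types has well known marker genes. Colonocytes burn butyrate, made by gut bacteria, as a main fuel. Large T-antigen binds the retinoblastoma protein and p53, which hold back the cell cycle, and is used to make cell lines that keep dividing.

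Messenger RNA was measured on the Affymetrix Mouse Expression Array 430A, in which a gene is read by 1 or more probe sets and each gives a scaled signal. The 12393 genes with a probe set of their own were ranked by the mean signal of the 2 untreated arrays. Each gene was read by its probe set with the highest mean over the 8 arrays. Probe sets differ in how well they bind, so a rank is a rank of signal and not of messenger RNA amount. The top 10% held 1239 genes, the lowest with a mean signal of 1785.3 and the next gene below it at 1784.95. To set a level for background, 89 measured genes of unrelated tissues, such as muscle, lens, retina and germ cells, were listed. Their 178 signals at 0 h had a median of 23.45, and 90% of them lay at or below 108.5. A gene at or below that signal on both untreated arrays was called near background, and 4972 genes were. The remaining 6182 genes lay between. A gene near background may still be expressed at a level that these probe sets do not show.

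**Figure D1:**
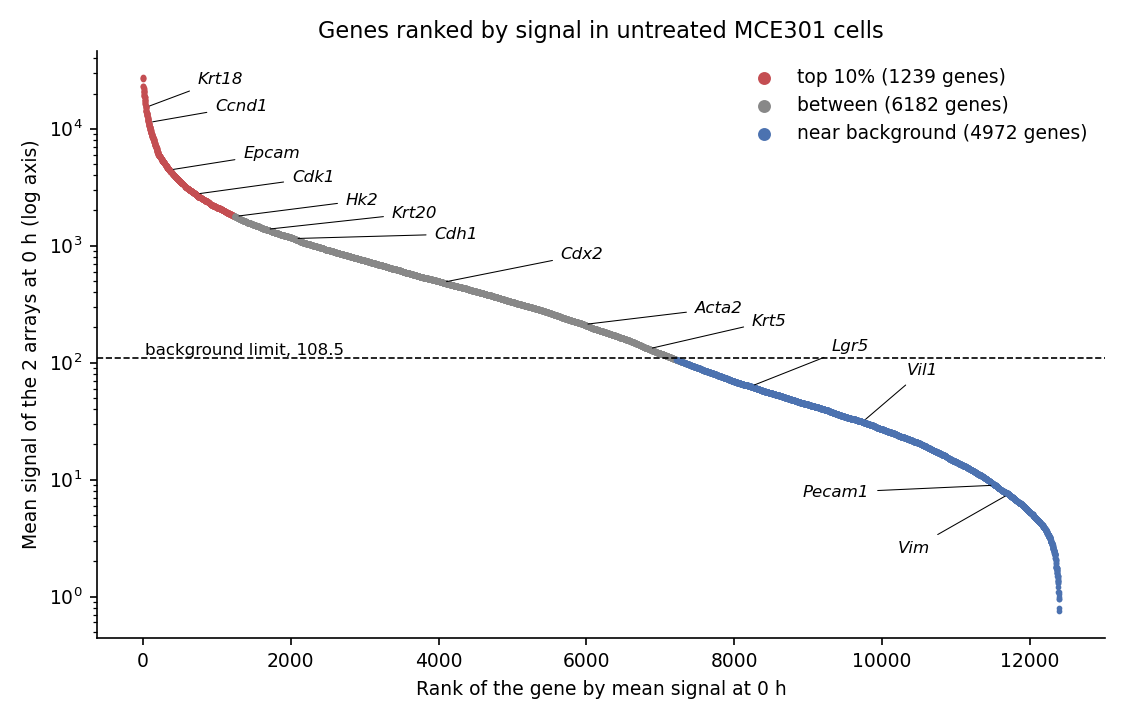
Mean signal of the 2 untreated arrays (vertical axis, log scale) against the rank of the gene (horizontal axis) for 12393 genes, coloured by range, with selected genes named and the background limit of 108.5 dashed. The keratin Krt18 and the cyclin Ccnd1 stand near the left end, and the endothelial gene Pecam1 and the mesenchymal gene Vim stand near the right end, below the limit.

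The 2 untreated arrays gave closely similar values where the signal was high. In the top 10%, 97.6% of genes had 2 signals within 1.5 times of each other, and 1 gene differed by more than 2 times. Near background, 45.3% of genes were within 1.5 times and 35.8% were beyond 2 times, so the order of genes there carries little information. Of the 100 genes with the highest mean, 92 were among the highest 100 of both arrays taken singly. The 100 brightest genes held 16.4% of the summed signal, the top 10% 59.9%, and the genes near background 1.85%. The median signals of the 2 arrays were 142 and 144.6, and the Gapdh 3′ to 5′ signal ratios were 0.796 and 0.767. The 9 control probe sets for bacterial and phage transcripts were 1.70 times as bright on array 2 as on array 1. At 6, 12 and 24 h they were likewise brighter on the second array, by 1.99, 1.34 and 1.65 times. The part of this in the differences between the arrays was not tested. Of the 320 genes named by rule, 137 had several probe sets. Among the 62 of these in the top 10%, 18 had another probe set near background. Of the 46 near background, 45 had every other probe set near background as well. That count was largely fixed in advance, because each gene was read by its brightest probe set, so it is no check on the low calls.

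**Figure D2:**
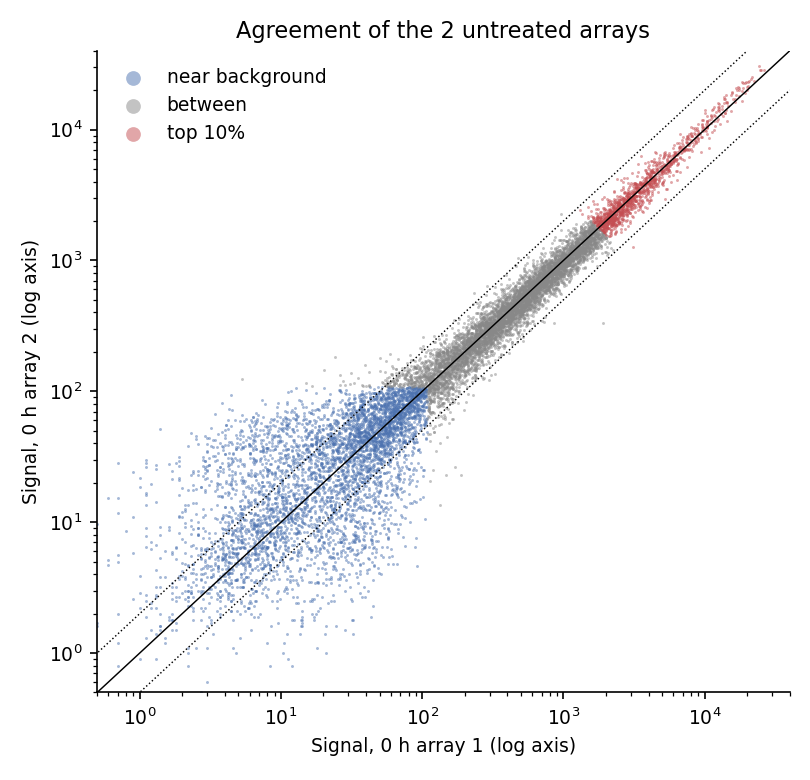
Signal of each of 12393 genes on untreated array 1 (horizontal axis) and untreated array 2 (vertical axis), both on log scales, coloured by range, with equality as a solid line and a difference of 2 times in each direction dotted. Genes of the top 10% hug the line, and genes near background spread well past the dotted lines.

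To show where the untreated state differed from the rest of the series, 0 h was compared with the mean of the 6, 12 and 24 h groups on the log2(signal + 32) scale in limma, over the 7340 genes that passed a filter on low signals. At a Benjamini-Hochberg adjusted p under 0.05, 1543 genes were higher at 0 h, which is 21% of those tested, and 1650 were lower, which is 22.5%. Without untreated array 1 these counts were 875 and 1097, and without untreated array 2 they were 931 and 1013. The 2 untreated arrays did not overlap the 6 later arrays for 40.8% of genes. The median difference over all genes tested was -0.03. A gene passed the filter with at least 2 of the 8 arrays above 144.7. Of the genes called higher, 68 passed it through the untreated arrays alone, and of those called lower, 356 passed it through the later arrays alone, so that the filter fixed their direction. In a bulk sample, fewer cells of a kind and less RNA per cell cannot be told apart. A call in either direction was thus common, at 43.5%, and the counts in each gene list below stand against these shares. Differences below are 0 h minus the later mean with the standard error of the fit, so a positive value is a higher signal in untreated cells.

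The brightest genes of untreated cells were those of protein synthesis and the actin cytoskeleton. Rpl41, a protein of the large ribosomal subunit, ranked first with signals of 26447 and 28433 on the 2 untreated arrays, although another of its probe sets read 68.9 and 45.8. It was followed by Tpt1, a growth-associated protein that binds tubulin and calcium, at 24229 and 30352. Actb, cytoplasmic actin, stood at 25178 and 28709.5, and Eef1a1, the elongation factor that brings aminoacyl-tRNA to the ribosome, at 24481 and 28292. None of these 4 passed the test against the later times. Of the 25 brightest genes, 17 were members of the list of cytosolic ribosomal proteins, and Rps3a1, whose symbol that list did not hold, was a further one. Over the whole list, 34 of 45 measured ribosomal protein genes were in the top 10% and 3 were near background: Rpl3l, Rpl39l and Rps4l, which were 6.5 and 6.3, 10.5 and 9.9 and 6.8 and 5.2. Rpl3l and Rpl39l are paralogs known from striated muscle and testis. In the comparison with the later times, 21% of all genes were higher at 0 h and 22.5% lower. Of the 41 tested ribosomal genes, 2 were higher and 0 lower, with a median difference of -0.04. The call of one of these, Rps27l, was lost without untreated array 1 (limma, adjusted p = 0.11) and without array 2 (adjusted p = 0.0522). The other, Rpl12, read 162 and 198 at 0 h, passed the filter through its untreated signals alone, and was not tested when either of them was left out.

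Among the other genes of the first 25, S100a6, a small calcium-binding protein, had signals of 19191 and 22748 and ranked 12. Tmsb10, a thymosin that binds actin monomers, stood at 21499 and 25124, and Nme2, a nucleoside diphosphate kinase, at 17022 and 20187. For each of these 3 genes the untreated signals lay within the range of the later arrays.

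The keratins of untreated cells were those of simple epithelia. Keratins are the intermediate filament proteins of epithelial cells and work in pairs of a type I and a type II chain. Simple epithelia carry Krt8 with Krt18 or Krt19, and stratified epithelia carry Krt5 with Krt14 at their base. Of 40 measured keratin genes, 4 were in the top 10%, 6 lay between and 30 were near background. Krt18, a type I chain of simple epithelia, had signals of 14221 and 16217. Krt19, another type I chain, had signals of 11834 and 12653. Krt7, a type II chain found in ductal and some glandular epithelia, read 12117 and 13529, and Krt8 read 8968 and 9694. These 4 genes took ranks 39, 64, 61 and 108 of 12393. Their later signals ran from 14278 to 26958 (median 19125) for Krt18, 11871 to 19047 (median 16017) for Krt19, 9141 to 12012 (median 10452) for Krt7 and 9420.0 to 15516 (median 13354) for Krt8, and only Krt7 had untreated arrays clear of the later ones. Krt8 was lower at 0 h by the test, with a difference of -0.44 ± 0.13 (limma, adjusted p = 0.0197). The call was lost without untreated array 1 (adjusted p = 0.143) and without untreated array 2 (adjusted p = 0.0705). Krt18, Krt19 and Krt7 were not called in limma, at adjusted p = 0.111, 0.15 and 0.103. With the replicate number as a block all 3 were called, at adjusted p = 0.0288, 0.0384 and 0.0449, with Krt18 and Krt19 lower and Krt7 higher at 0 h.

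2 further keratins set the untreated cells apart. Krt20, a keratin of mature surface cells of the intestine, had signals of 1119 and 1634 at 0 h and from 2994 to 18156 (median 8066) on the later arrays. It was lower at 0 h by 5.42-fold, a difference of -2.44 ± 0.19 (limma, adjusted p = 1.83e-05), and every later array was above both untreated ones. Krt80, a type II keratin linked to cell junctions, had signals of 821 and 892 at 0 h and from 156 to 302 (median 209.9) later. It was higher at 0 h by 3.65-fold, a difference of 1.87 ± 0.16 (limma, adjusted p = 2.36e-05), and both untreated arrays were above all later ones.

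Keratins of stratified and cornified epithelium were low. Krt5, a basal cell keratin, read 97.4 and 164, 1 array on each side of the background limit, and its partner Krt14 read 79.7 and 80.9. Krt10, a keratin of the upper epidermis, read 207 and 175, and Krt81, a hair keratin, read 157 and 109. Krt88 read 72.8 and 109. The 30 keratins near background included Krt6a, Krt16 and Krt17, which rise in wounded or activated epidermis, and Krt1, Krt13 and Krt15. Krt23, listed with the simple epithelial keratins, was also near background, at 31.4 and 10.5.

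**Figure D3:**
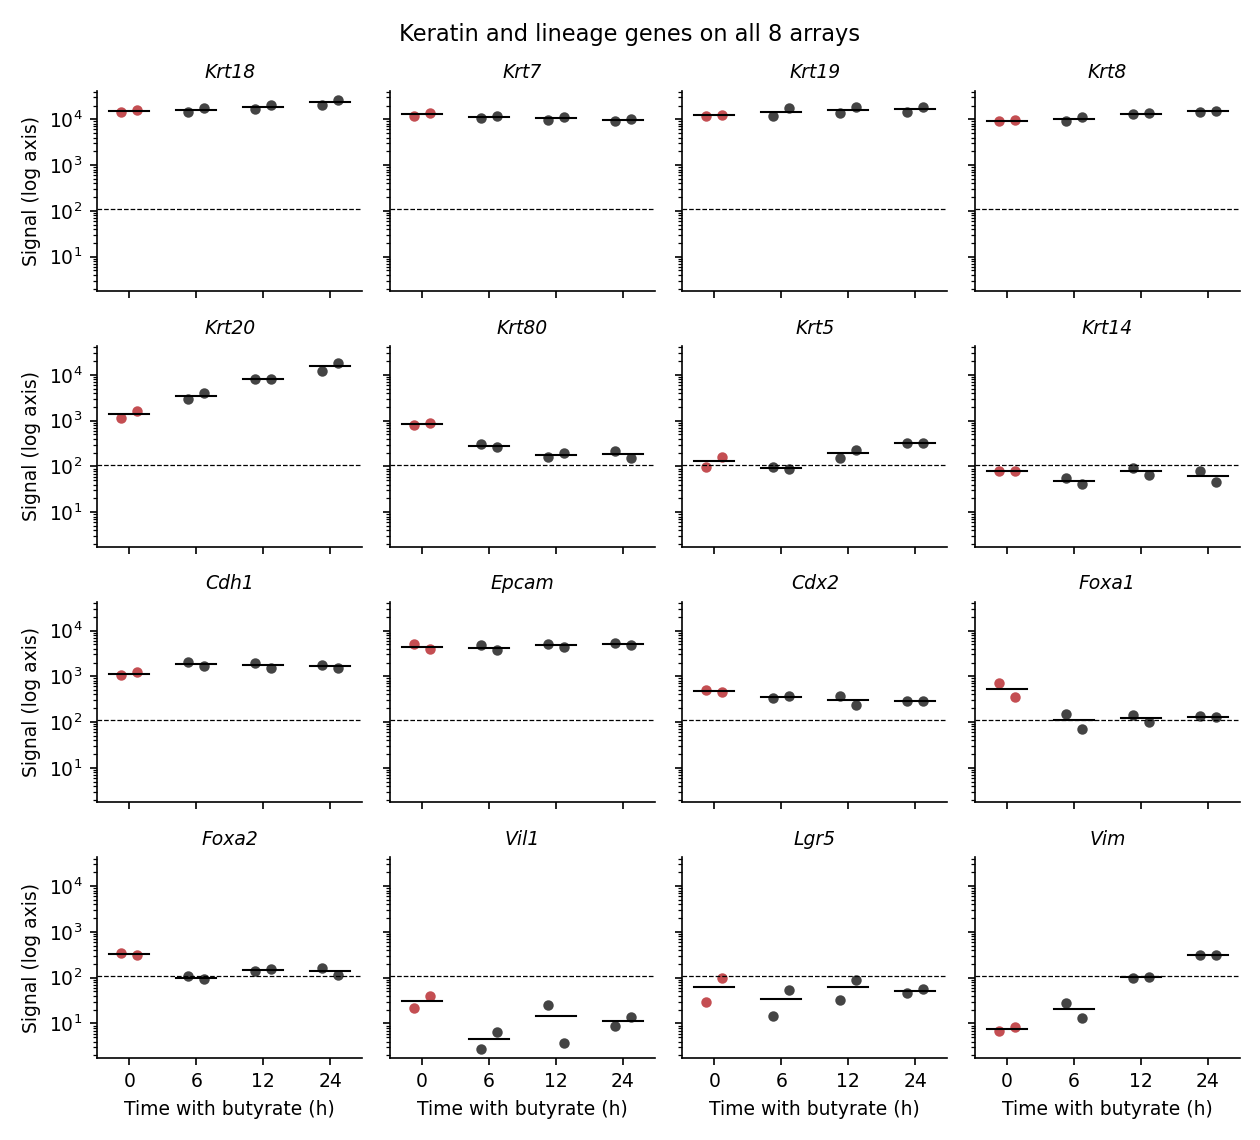
Signal on each of the 8 arrays (points, log axis) for 16 keratin and lineage genes against the time with butyrate in hours, with untreated arrays in red, the mean of 2 arrays as a bar and the background limit of 108.5 dashed. Krt18, Krt7, Krt19 and Krt8 lie far above the limit at all times, Krt20 climbs from a mean of 1377, Krt80, Foxa1 and Foxa2 are highest in untreated cells, and Vil1 and Lgr5 stay below the limit throughout.

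Genes of epithelial adhesion were broadly present. Of 40 measured genes of cell junctions and epithelial identity, 12 were in the top 10%, 24 lay between and 4 were near background, against 40.1% of all genes near background. Ctnnb1, the adherens junction protein that also carries Wnt signals, had signals of 11210.0 and 12362, and Ctnna1, which ties it to actin, read 9781 and 9833. Cldn3 and Cldn4, claudins that seal tight junctions, read 8783 and 10001 and 7532 and 8964. Epcam, a surface adhesion protein of epithelial cells, read 5001 and 3861. Cdh1, the E-cadherin of adherens junctions, stood lower in the ranking, at 1064 and 1236 and rank 2043. The 4 near background were Cldn15, Cldn23, Dsc2 and Ovol1, of which Cldn15 is the claudin of intestinal sodium transport and read 56.2 and 47.3.

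Of 37 epithelial genes tested, 8 were higher and 5 lower at 0 h, against 21% and 22.5% of all genes, with a median difference of 0.09. Of the 5 lower genes, Tjp3 and Cldn23 passed the filter through their later signals alone, so their direction was fixed by it. The counts were 6 and 3 without untreated array 1, and 4 and 4 without untreated array 2. Cdh1 read 1526 to 2054 (median 1714) on the later arrays, with a difference of -0.59 ± 0.15 (limma, adjusted p = 0.00992), and the call was lost without untreated array 1 (adjusted p = 0.111). Elf3, an epithelial transcription factor of the intestine, read 440.4 and 525 at 0 h and 848 to 1509.5 (median 1388) later, a difference of -1.34 ± 0.19 (limma, adjusted p = 3.94e-04). Esrp2, a splicing regulator of epithelial cells, read 566 and 562 at 0 h and 192 to 343 (median 249) later, a difference of 1.08 ± 0.16 (limma, adjusted p = 5.44e-04). The untreated and later arrays did not overlap for any of these 3 genes.

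Transcription factors of the intestine were present in part. None of the 20 measured was in the top 10%, 7 lay between and 13 were near background. Klf5, a factor of dividing crypt cells, was the highest at 1598 and 1725, though a second probe set read 142 and 163. Cdx2, the factor that sets intestinal identity, read 512 and 458, and its second probe set read 126 and 198. Its paralog Cdx1 was near background at 2.7 and 5.2. Foxa1 and Foxa2, pioneer factors of endoderm, read 705 and 346 and 350.4 and 318. The 2 untreated arrays of Foxa1 differed by over 2 times. Hnf4a and Hnf4g, factors of mature enterocytes, were near background at 78.4 and 100.3 and 8.3 and 17.3, as were Gata4, Gata5 and Gata6.

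Of the 8 intestinal factors tested, 3 were higher at 0 h and 0 lower, against 21% and 22.5% of all genes. With the replicate block the counts were 3 and 2. The median difference was -0.05, or 0.17 over the 7 that did not pass the filter through one side alone. Foxa1 was 72.1 to 147 (median 129.8) on the later arrays, a difference of 1.82 ± 0.26 (limma, adjusted p = 3.94e-04). Foxa2 was 93.4 to 164 (median 125) later, a difference of 1.20 ± 0.15 (limma, adjusted p = 1.76e-04). Cdx2 was 233 to 373 (median 307) later, a difference of 0.60 ± 0.16 (limma, adjusted p = 0.0131), and its call was lost without untreated array 1 (adjusted p = 0.116) and without array 2 (adjusted p = 0.0543). Both untreated arrays were above all later arrays for each of the 3.

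Markers of mature colonocytes were mostly near background. Of 37 measured, 2 were in the top 10%, 6 lay between and 29 were near background. The highest was Car2, a carbonic anhydrase, with signals of 5053 and 4873, while its relatives Car1 and Car4, also colonic, read 4.9 and 5.8 and 7.7 and 30.3. Tspan8, a tetraspanin of the gut epithelium, read 3579.7 and 3464, and its other probe sets read 908 and 554, 289.6 and 286 and 164 and 190.3. Cdh17, the cadherin of intestinal epithelium, read 465 and 911, a wide gap between the 2 arrays. Vil1, the actin bundling protein of the brush border, was near background at 21.5 and 40.7. So were Slc26a3, the chloride exchanger of colonocytes, at 26.9 and 41.6, Aqp8, a water channel, at 81 and 16.5, and the fatty acid binding proteins Fabp1 and Fabp2, at 20.8 and 7.8 and 5.2 and 20.9. In the comparison with later times 7 of these genes were tested. Of them 2 were higher and 1 lower at 0 h, against 21% and 22.5% of all genes. Plet1, a surface protein of the colonic epithelium, was the lower one, at 7.9 and 20.1 against 58.7 to 370.0 (median 215), a difference of -2.30 ± 0.21 (limma, adjusted p = 3.57e-05). A second Plet1 probe set read 76.5 and 96.8 at 0 h, brighter than the one used there but also near background. The one used passed the filter through its later signals alone.

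Genes of the secretory lineages were mostly near background. All 21 enteroendocrine genes measured and all 14 Paneth and tuft cell genes measured were near background. The hormone granule protein Chga read 13.4 and 8.5, Neurod1, a factor of endocrine cells, 33.1 and 60.2, and the tuft cell kinase Dclk1 78.2 and 78.8. Of 16 goblet cell genes, 12 were near background, among them Spdef and Atoh1, factors that drive secretory fate, at 19 and 12.6 and 84.5 and 91.2. The goblet peptide Tff3 read 132 and 55.3 and the highest of the 16, Fcgbp, a protein of mucus, read 224 and 278. The mucin Muc2 was not analysed here.

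Of 17 measured genes linked to intestinal stem cells, 4 were in the top 10% and 9 were near background. The receptor Lgr5, the best known crypt base marker, was near background at 29.1 and 96.1. So were Ascl2, a transcription factor of the crypt base, at 14.5 and 12.7, and Smoc2 at 59.4 and 28.6. Axin2, a Wnt target, read 24.1 and 41.6. The 4 high genes were Prom1, Slc12a2, Sox4 and Cd44, which are also found outside the stem cell. Prom1, a membrane protein of apical protrusions, had signals of 5482 and 4824, and Cd44, a hyaluronan receptor, had signals of 2369 and 2478. Slc12a2 and Sox4 each had other probe sets with signals several times lower than those used. Cd44 ran from 3517 to 4497 (median 4133) later and was lower at 0 h, a difference of -0.73 ± 0.12 (limma, adjusted p = 0.00102). Bmi1, a polycomb protein, read 1864 and 1419 at 0 h and 334 to 1064 (median 462) later, a difference of 1.53 ± 0.17 (limma, adjusted p = 9.68e-05). A second Bmi1 probe set read 416 and 433 at 0 h. Neither gene overlapped between the untreated and later arrays.

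Genes of other endodermal organs, namely stomach, pancreas, liver and lung, were near background for 23 of 24 measured. The exception was Tff1, a trefoil peptide of the gastric surface, with signals of 773 and 601. Alb, of liver, read 56.8 and 4.8, Pdx1, of pancreas and duodenum, 7 and 16.5, and Sftpc, of lung, 81 and 84.3.

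Genes of squamous and cornified epithelium were mixed. Of 24 measured, 1 was in the top 10%, 10 lay between and 13 were near background. The high one, Sprr1a, a precursor of the cornified envelope that is also induced by stress in other epithelia, had signals of 15874 and 17248 and ranked 32. It read 9507 to 14498 (median 11536) on the later arrays, all below the untreated ones, a difference of 0.53 ± 0.13 (limma, adjusted p = 0.00799), and the call was lost without untreated array 2 (adjusted p = 0.0821). The factor of basal cells, Trp63, was near background at 60.2 and 22.6, with 2 other probe sets also near it. Ivl and Flg, proteins of the cornified layer, read 5.1 and 3.2 and 20.8 and 19.6.

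**Figure D4:**
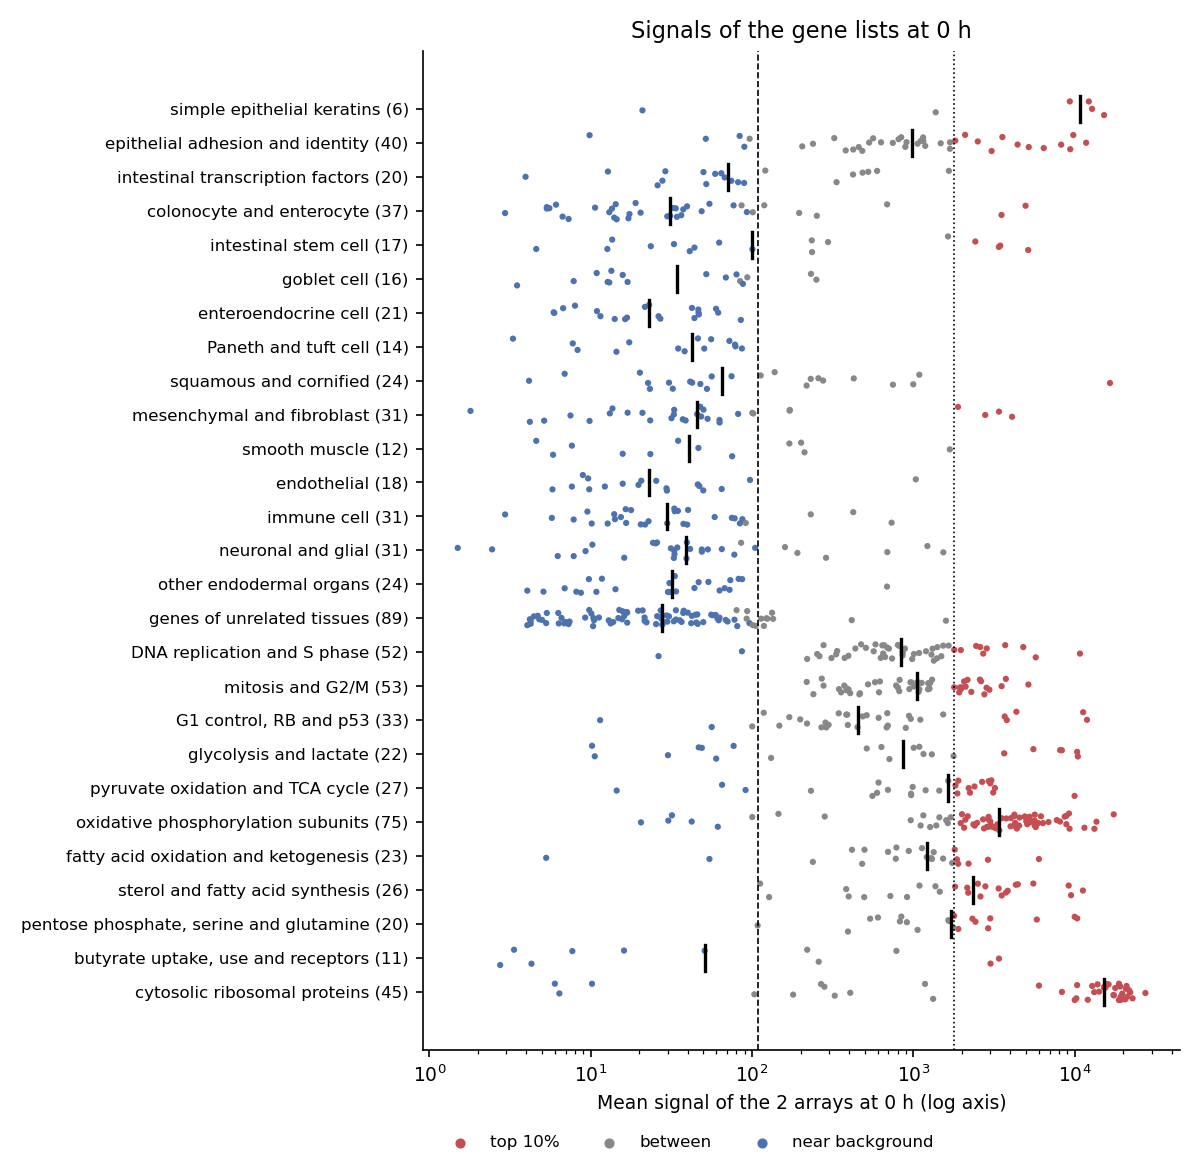
Mean signal of the 2 untreated arrays (horizontal axis, log scale) for the measured members of 27 gene lists, 1 point per gene coloured by range, with the number measured in brackets, the list median as a black bar, the background limit of 108.5 dashed and the lower edge of the top 10% dotted. Simple keratins and ribosomal proteins have medians of 10787 and 15239, and the medians of the differentiated and non-epithelial cell types lie below the background limit.

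Markers of other cell types that a culture could hold were mostly near background. For the mesenchymal list this was so for 23 of 31 genes, for the smooth muscle list for 8 of 12, for the endothelial list for 17 of 18, for the immune list for 27 of 31 and for the neuronal and glial list for 24 of 31. Col1a1, the main collagen of fibroblasts, read 17.4 and 57.1, and Pdgfra, a fibroblast receptor, 38.8 and 67.3. Pecam1, of endothelium, read 8.2 and 9.7, and Ptprc, the pan-leukocyte phosphatase, 45.5 and 33.9. The smooth muscle myosin Myh11 read 38.5 and 8.4.

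Vim, the intermediate filament of mesenchymal cells and of many cultured epithelial cells, was near background in untreated cells. Its 3 probe sets read 6.8 and 8.2, 10.1 and 5.9, and 11.8 and 1.3. On the later arrays the first of these ran from 13.1 to 318 (median 102). It was lower at 0 h, a difference of -1.77 ± 0.14 (limma, adjusted p = 1.83e-05), and no later array overlapped the untreated ones, but it passed the filter through its later signals alone.

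Some members of these lists were high in untreated cells. Fn1, the matrix protein fibronectin, had signals of 4133 and 4055, with a second probe set at 41.9 and 66.8. Cdh2, the N-cadherin of mesenchyme and neurons, read 2684 and 2898, and its second probe set read 1421 and 1246. It was 807 to 1687 (median 1022) on the later arrays, all lower, a difference of 1.30 ± 0.15 (limma, adjusted p = 1.09e-04). S100a4 and the matrix protein Sparc read 3443 and 3348 and 1993 and 1792. Smtn, a smooth muscle cytoskeletal protein, read 1738 and 1630.2, and Ptprb, the endothelial receptor phosphatase, 1120.1 and 952. Csf1r, the receptor for a macrophage growth factor, read 868 and 599, with other probe sets at 248 and 231 and 138 and 186. Tyrobp and Fcer1g, which macrophages express widely, were near background at 12.4 and 23.2 and 14.1 and 14.2.

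Ptprb was 151 to 379 (median 192) later and higher at 0 h, a difference of 2.03 ± 0.14 (limma, adjusted p = 7.65e-06), with no overlap of the arrays. The neuronal list went the other way. Of 11 neuronal and glial genes tested, 8 were lower and 2 higher at 0 h, against 22.5% and 21% of all genes. The median difference was -0.95, or -0.66 over the 7 that did not pass the filter through one side alone. The 2 higher calls fell to 0 without untreated array 1 and to 1 without array 2. 4 of the 8 lower genes, Eno2, Rab3a, Bex2 and Kif5c, were near background at 0 h and passed the filter through their later signals, so their direction was fixed by it. Rab3a, a protein of synaptic vesicles, read 52.5 and 26.5 at 0 h and 236 to 426 (median 285) later. Uchl1, a neuronal deubiquitinase that many cell lines express, was the highest of the list at 1709 and 1361 and 1708 to 4073 (median 2507) later, a difference of -0.78 ± 0.14 (limma, adjusted p = 0.00125).

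Genes of cell division were present almost without exception. All 53 measured genes of mitosis and the G2 to M transition were above background, 17 of them in the top 10%. Of 52 genes of DNA replication, 10 were in the top 10%, 40 lay between and 2, Orc1 and Tyms, were near background. Ube2c, the ubiquitin conjugating enzyme of the anaphase-promoting complex, was the highest mitotic gene at 4751 and 5584. Ccna2, the cyclin of S and G2 phase, read 2891 and 3032, Cdk1, the kinase that drives mitosis, 2548 and 2969, and Mki67, the proliferation antigen, 1758 and 2092. Pcna, the sliding clamp of replication, was the highest S-phase gene at 10485 and 11086 and rank 82. Mcm7, a subunit of the replicative helicase, read 5708 and 5767, and Rrm2, the ribonucleotide reductase subunit made in S phase, 3974 and 5635. Tyms, thymidylate synthase, is needed by dividing cells, yet all 3 of its probe sets were near background, and the one used read 1.4 and 51.3.

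Most division genes were higher in untreated cells than later. Of the 53 mitotic genes, all tested, 45 were higher and 1 lower at 0 h, against 21% and 22.5% of all genes, and the median difference was 0.88. The counts were 40 and 1 without untreated array 1, and 36 and 0 without untreated array 2. Of 50 replication genes tested, 30 were higher and 2 lower, with a median difference of 0.61. Without untreated array 1 they were 24 and 0, and without array 2 they were 27 and 0. These lists were chosen with earlier results of the same data known, so the counts are a description. Ccna2 read 244 to 1694 (median 1061) later and was 3.63-fold higher at 0 h, a difference of 1.86 ± 0.13 (limma, adjusted p = 9.47e-06). Cdc20, the activator of the anaphase-promoting complex, read 2185 and 2393 at 0 h and 227 to 1600.3 (median 724) later, a difference of 1.76 ± 0.23 (limma, adjusted p = 2.15e-04). Tk1, the thymidine kinase of S phase, read 2525 and 2669.8 at 0 h and 285 to 1478 (median 656) later, a difference of 1.95 ± 0.15 (limma, adjusted p = 1.78e-05). For these 3 genes every later array was below both untreated ones. Pttg1, securin, which holds back the separation of sister chromatids, was the 1 mitotic gene called lower. It read 3146 and 2544 at 0 h against 2813 to 6186 (median 4979.6) later, a difference of -0.65 ± 0.15 (limma, adjusted p = 0.00582). Its call was lost without untreated array 2.

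Many promoters of mitotic genes are known to hold CCAAT boxes, which the factor NF-Y binds, and those of S-phase genes to hold sites for E2F, the factor that the retinoblastoma protein restrains. The RefSeq promoter windows of assembly GRCm38.p6 were searched over the 250 bases before the gene's start, on both strands. The motifs were CCAAT, and for E2F the 4 words TTTCCCGC, TTTCGCGC, TTTGCCGC and TTTGGCGC, where matches may overlap. Of the 53 mitotic genes, 44 had a window, and CCAAT was in 31 of them, or 70.5%, with 2 or more matches in 40.9%. In the windows of replication genes CCAAT was in 24 of 45, or 53.3%, with 2 or more matches in 26.7%. CCAAT was in 34.5% of all 27025 promoter windows and in 36.9% of those of the top 10%, with 2 or more matches in 10.5% and 16%. An E2F word was in 9 of 45 windows of replication genes, or 20%, and in 2 of 44 mitotic windows, or 4.55%. The share was 1.91% of all windows, 3.54% of those of the top 10% and 4.06% of those of genes between, so the mitotic share was near that of these genes. A match is only a run of letters, and binding was not measured.

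The windows below show where these words lie in 5 mitotic genes with CCAAT and then 3 replication genes with an E2F word. They are the 150 bases before the start, read 5′ to 3′ on the strand of the gene. The genes are among the brighter of those that hold the word in these bases. Hells, with a mean signal of 643, is still below the replication list's median of 841. Capitals mark CCAAT or its reverse complement ATTGG, and the E2F words or their reverse complements, in every window. The genes were chosen for holding the word of their own group, and the words are not exclusive to it: Mcm6 and Mcm5 each hold 2 CCAAT matches, and Cdk1 holds 1 E2F word. The lines give the RefSeq GRCm38.p6 position and strand.
Ube2c (chr2:164769779-164769928, strand +): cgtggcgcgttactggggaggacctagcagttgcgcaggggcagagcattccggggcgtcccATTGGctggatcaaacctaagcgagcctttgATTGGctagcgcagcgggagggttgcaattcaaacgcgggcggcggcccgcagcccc
Bub3 (chr7:131560220-131560369, strand +): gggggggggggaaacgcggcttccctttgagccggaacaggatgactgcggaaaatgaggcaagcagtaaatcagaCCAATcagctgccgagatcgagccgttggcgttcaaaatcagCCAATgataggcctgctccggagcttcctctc
Cdk1 (chr10:69352913-69353062, strand -): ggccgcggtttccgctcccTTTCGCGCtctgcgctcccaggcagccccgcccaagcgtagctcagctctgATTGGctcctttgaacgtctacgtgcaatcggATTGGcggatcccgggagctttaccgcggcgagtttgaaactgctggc
Cdc20 (chr4:118437344-118437493, strand -): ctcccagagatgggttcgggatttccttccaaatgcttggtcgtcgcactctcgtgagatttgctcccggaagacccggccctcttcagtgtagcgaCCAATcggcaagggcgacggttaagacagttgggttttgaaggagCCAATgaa
Ccnb2 (chr9:70421555-70421704, strand -): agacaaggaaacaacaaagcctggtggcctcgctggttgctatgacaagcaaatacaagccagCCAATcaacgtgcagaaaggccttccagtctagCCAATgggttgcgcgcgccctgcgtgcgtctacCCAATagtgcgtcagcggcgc
Mcm6 (chr1:128359706-128359855, strand -): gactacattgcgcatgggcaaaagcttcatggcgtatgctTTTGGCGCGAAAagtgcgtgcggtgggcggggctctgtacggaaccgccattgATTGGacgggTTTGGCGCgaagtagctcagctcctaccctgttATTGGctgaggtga
Mcm5 (chr8:75109359-75109508, strand +): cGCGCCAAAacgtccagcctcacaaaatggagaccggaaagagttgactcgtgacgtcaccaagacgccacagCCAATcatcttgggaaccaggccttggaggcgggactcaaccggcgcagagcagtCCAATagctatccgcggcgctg
Hells (chr19:38930840-38930989, strand +): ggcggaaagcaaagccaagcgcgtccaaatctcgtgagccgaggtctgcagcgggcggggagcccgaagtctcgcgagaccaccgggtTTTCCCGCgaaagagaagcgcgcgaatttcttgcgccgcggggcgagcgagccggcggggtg

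The genes shown did not all stand alike in the cells. Ccnb2, a mitotic cyclin with 3 CCAAT matches, read 2069.8 and 2057 at 0 h and 463 to 1838 (median 1029) later, a difference of 1.06 ± 0.12 (limma, adjusted p = 1.09e-04). Bub3, a spindle checkpoint protein with 2 matches, read 3635 and 3857 and was not called (limma, adjusted p = 0.0512), though it was with the replicate block (adjusted p = 0.0434). Its other probe sets were far dimmer. Mcm6, a helicase subunit with 3 overlapping or neighbouring E2F words, read 2394 and 2511 at 0 h and 358 to 2388 (median 1182) later, a difference of 1.22 ± 0.15 (limma, adjusted p = 1.94e-04). Hells, a chromatin remodeler of replicating cells, read 623 and 663 at 0 h and 52 to 438 (median 146) later, a difference of 1.73 ± 0.18 (limma, adjusted p = 7.86e-05). CpG dinucleotides were about as frequent in windows of the top 10% as in those of genes between, with median observed over expected ratios of 0.833 and 0.791. Genes near background were left out of this measure, since fewer of them had a window, 76.1% against 82.2% in each other range. Whether CpG frequency varied over the whole range of signal is therefore not stated.

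The G1 control genes were led by a D-type cyclin and a p53 target. Of 33 measured, 5 were in the top 10%, 26 lay between and 2 were near background. Mdm2, which p53 induces and which destroys p53, had signals of 11100.1 and 12759 and rank 68, and its second probe set read 9726 and 7808. Ccnd1, cyclin D1, had signals of 11903 and 10680.1 and rank 76, and its other probe sets read 5357 and 6322 and 8195 and 9432. Ccnd2, cyclin D2, read 3784 and 4921, and its partner kinase Cdk4 3485 and 3882. Cdkn1a, the p21 inhibitor that p53 induces, read 3717 and 3876 and ranked 451, with a second probe set at 479.9 and 398. Cdkn2a, the locus of p16 and p19ARF, read 668 and 712, and Rb1, the retinoblastoma protein, 228 and 210.2. The p53 gene Trp53 was not analysed here.

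Of 29 G1 genes tested, 11 were higher and 7 lower at 0 h, against 21% and 22.5% of all genes. The median difference was 0.26. The filter fixed the direction of 1 higher gene, Cdk6, which passed it through its untreated signals alone, and of 1 lower gene, Cdkn1c, which passed it through its later signals alone. Without untreated array 1 the counts were 8 and 7, and without array 2 they were 6 and 5. Ccnd1 had the largest difference of the list. It read 785 to 5968 (median 1465) on the later arrays and was 5.82-fold higher at 0 h, a difference of 2.54 ± 0.13 (limma, adjusted p = 1.99e-06). Myc, the growth factor-responsive transcription factor, read 1077 and 1134 at 0 h and 397 to 599.5 (median 487) later, a difference of 1.15 ± 0.16 (limma, adjusted p = 3.07e-04). Rb1 was the reverse, at 441 to 700.2 (median 565) later and a difference of -1.24 ± 0.14 (limma, adjusted p = 1.15e-04). None of these 3 genes overlapped between the untreated and later arrays. Cdkn1a and Mdm2 were not called, at adjusted p = 0.265 and 0.677 in limma.

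**Figure D5:**
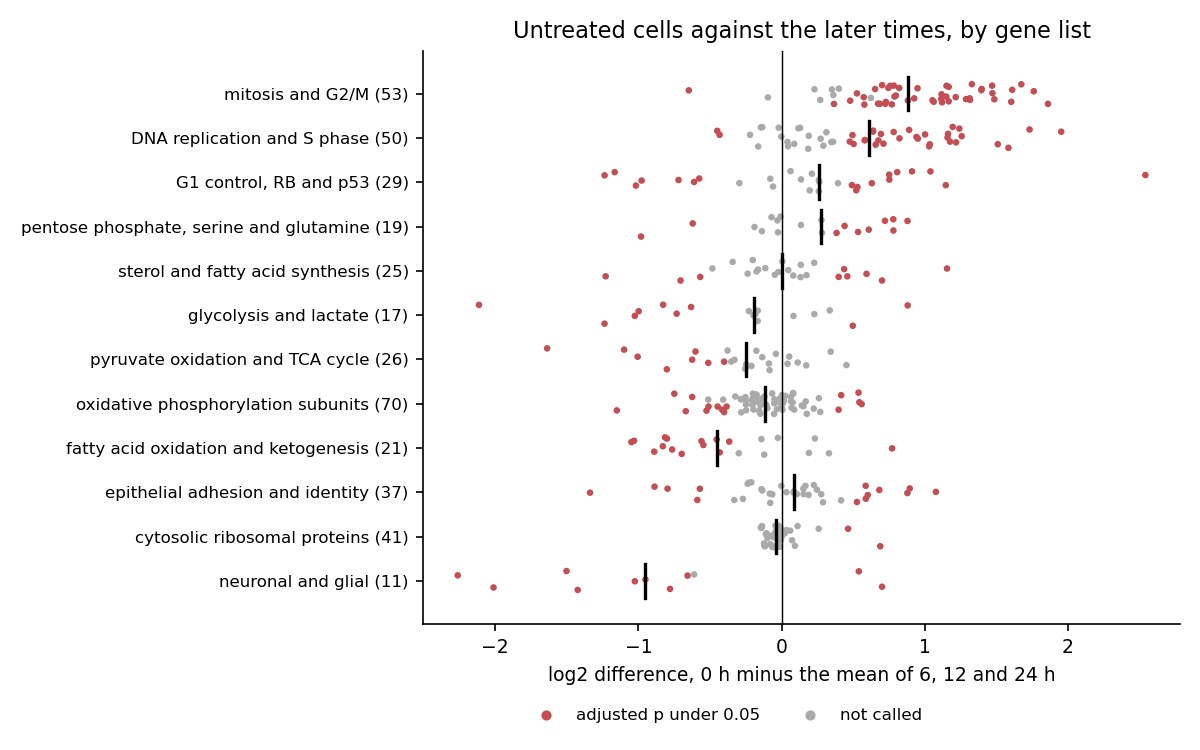
Difference between 0 h and the mean of the 6, 12 and 24 h groups on the log2(signal + 32) scale (horizontal axis) for the tested members of 12 gene lists, 1 point per gene, red where the adjusted p in limma was under 0.05, with the number tested in brackets and the list median as a black bar. Medians are 0.88 for mitosis and 0.61 for replication, and -0.45 for fatty acid oxidation. The median of -0.95 for neuronal and glial genes includes 4 genes whose direction the filter fixed and is -0.66 without them.

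In metabolism, most genes of respiration were high. Of 75 subunits of oxidative phosphorylation, 58 were in the top 10% and 5 were near background. Uqcrb, of complex III, had signals of 18477 and 16451, and Cox6a1 and Cox5b, of cytochrome oxidase, 12483 and 14836 and 12509.8 and 14003. The 5 near background were Cox4i2, Cox7c, Cox8b, Cox7a1 and Cox6b2, of which all but Cox7c are forms known from lung, muscle, heart or testis. Of 27 genes of pyruvate oxidation and the citric acid cycle, 13 were in the top 10% and 3 near background. Mdh2, mitochondrial malate dehydrogenase, read 9687 and 10292, and Cs, citrate synthase, 3129.5 and 3127. The 3 near background were Pcx, pyruvate carboxylase, at 106 and 76.3, and Pdk2 and Pdk4, kinases that shut off pyruvate dehydrogenase, at 64.5 and 66 and 24.7 and 4.3.

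Glycolysis was represented by particular isoforms. Of 22 genes measured, 6 were in the top 10%, 9 lay between and 7 were near background. Pgk1 and Pkm, the kinases that make ATP in the pathway, read 11277 and 9655 and 10174 and 10546, and Ldha, the dehydrogenase that makes lactate, 7511 and 8749. Among glucose transporters, Slc2a1 read 622 and 800.4 and Slc2a3 was near background at 39.9 and 20.4. Hk2, the hexokinase of growing cells, read 1822 and 1732, and Hk1 read 1086 and 926. The phosphofructokinase forms Pfkl and Pfkm were at 1108 and 1205 and 1072 and 1107, while Pfkp was near background at 67 and 53. The lactate exporter Slc16a3 was near background at 9.5 and 10.9. The Gapdh gene was not analysed here.

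The glycolytic genes split in the comparison with later times, where 21% of all genes were higher at 0 h and 22.5% lower. Of 17 tested, 2 were higher and 7 lower at 0 h, or 1 and 7 without untreated array 2, with a median difference of -0.20. Of the 7 lower genes, Pfkp, Eno2 and Pfkfb3 passed the filter through their later signals alone, which fixed their direction. Hk2 was higher, at 699 to 1508 (median 905) later, a difference of 0.88 ± 0.16 (limma, adjusted p = 0.00167). Slc2a1 was lower, at 1513 to 1884 (median 1717) later, a difference of -1.24 ± 0.14 (limma, adjusted p = 1.16e-04). Pfkp was lower by 4.32-fold, at 149 to 687 (median 426) later (limma, adjusted p = 4.47e-06). The arrays did not overlap for any of the 3.

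Genes that burn fatty acids were mostly above background, and most of those tested were lower than at the later times. Of 23 measured, 6 were in the top 10%, 15 lay between and 2 were near background. These were Decr1, an enzyme for unsaturated chains, at 29.6 and 79.4, and Ppara, the factor that drives the pathway, at 4.2 and 6.4. Hadh, a dehydrogenase of short chains, had signals of 6305 and 5708, with other probe sets at 1581 and 1771 and 97.9 and 128. Cpt1a, which admits fatty acids to mitochondria, read 488 and 509, and its other probe sets were near background. Of 21 tested, 1 was higher and 13 lower at 0 h, against 21% and 22.5% of all genes, with a median difference of -0.45. The counts were 1 and 9 when either untreated array was left out. Hadhb, of the trifunctional protein, read 2011 and 1473 at 0 h and 2933 to 4633 (median 3605) later, a difference of -1.05 ± 0.16 (limma, adjusted p = 4.80e-04), with no overlap. In the citric acid cycle list 0 were higher and 8 lower of 26 tested, and 2 of the lower ones, Pcx and Pdk2, passed the filter through their later signals alone. With the replicate block they were 2 and 10, and 5 were lower when either untreated array was left out. The 70 respiratory subunits tested gave 5 higher and 10 lower, or 0 and 4 without untreated array 1 and 2 and 4 without array 2. Of the 10, Cox7a1 passed the filter through its later signals alone. All 74 mitochondrial ribosomal protein genes were above background, 19 in the top 10%, and 15 were higher and 11 lower at 0 h, or 7 and 5 without untreated array 1 and 7 and 8 without array 2. Mpc1, a subunit of the mitochondrial pyruvate carrier, read 621 and 772 at 0 h and 1013 to 2442 (median 1509) later, a difference of -1.10 ± 0.14 (limma, adjusted p = 1.75e-04).

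Biosynthetic genes were among the bright ones. Of 26 genes of sterol and fatty acid synthesis, 16 were in the top 10% and 0 near background. Scd2, a fatty acid desaturase, read 10668 and 11839, Fdps, of the mevalonate pathway, 8781 and 10217, and Hmgcs1, which makes HMG-CoA for that pathway, 9525 and 8839. The related desaturase Scd1, high in liver and fat, lay between, at 119 and 105. The calls in this list are to be read against overall shares of 21% called higher and 22.5% called lower. Its median difference was 0.01. Of 25 tested, 6 were higher and 3 lower at 0 h, which fell to 1 and 1 without untreated array 1 and to 3 and 2 without array 2, and were 6 and 5 with the replicate block. Elovl6, a fatty acid elongase, was higher at 2552 and 2472 against 728 to 1742 (median 1117), a difference of 1.16 ± 0.13 (limma, adjusted p = 9.39e-05). Srebf1, a factor that drives fatty acid synthesis, was lower at 1430.3 and 1487 against 2873 to 4804 (median 3194), a difference of -1.23 ± 0.13 (limma, adjusted p = 7.86e-05). The arrays did not overlap for either.

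Of 20 genes of the pentose phosphate, serine and glutamine pathways, 9 were in the top 10% and 0 near background. Tkt, transketolase, read 10370.2 and 10382, and Phgdh, the first enzyme of serine synthesis, 10093 and 9918. The overall shares, 21% called higher and 22.5% called lower, are the reference for this list too. Of 19 tested, 8 were higher and 2 lower at 0 h, with a median difference of 0.28, and the counts were 2 and 1 without untreated array 1 and 4 and 1 without array 2. Glul, glutamine synthetase, was lower at 412 and 375 against 653 to 1099 (median 771), a difference of -0.98 ± 0.14 (limma, adjusted p = 3.32e-04), and the arrays did not overlap.

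Of 11 measured genes that take up, use or sense butyrate, 2 were in the top 10%, 3 lay between and 6 were near background. Slc16a1, the monocarboxylate transporter that carries butyrate, had signals of 3443 and 3349 and was not called (limma, adjusted p = 0.989), with later signals of 2891 to 4325 (median 3252). Bsg, the chaperone that brings it to the membrane, read 2736 and 3284. Slc5a8, the sodium-coupled butyrate transporter of the colon, was near background at 21.6 and 10.6, as were the receptors Ffar2 and Hcar2, at 53.9 and 47.9 and 4.9 and 3.7. Acads, the dehydrogenase that starts butyrate oxidation, read 722 and 849 at 0 h and 863 to 1426 (median 1213) later, a difference of -0.56 ± 0.15 (limma, adjusted p = 0.0113), and its call was lost without untreated array 1 (adjusted p = 0.125). Abcg2, an efflux pump that carries butyrate out in colon cell models, read 184 and 256 at 0 h and 351 to 960.5 (median 618) later, a difference of -1.40 ± 0.23 (limma, adjusted p = 8.42e-04). The counts of this short list stand against 22.5% of all genes lower and 21% higher at 0 h. Of 5 tested, 4 were lower at 0 h and 0 higher, and 2 were lower without untreated array 1.

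Over all genes, the largest differences marked the starting state from both sides. Fst, follistatin, which binds activin, had signals of 2519 and 2882 at 0 h and 140.5 to 431 (median 251) later, a 9.04-fold higher level (difference 3.18 ± 0.17; limma, adjusted p = 2.33e-06). Hmga2, an architectural chromatin protein of embryonic and transformed cells, read 7206 and 6965 at 0 h and 482 to 2202 (median 843) later, 7.48-fold higher. Hmgb2, a chromatin protein of dividing cells, read 1962 and 1929 at 0 h and 60.9 to 768 (median 421) later, 5.84-fold higher. A second Hmgb2 probe set read 599 and 1177 on the 2 untreated arrays. The others among the 10 largest with no overlap were Ccnd1, Tacc2, Sco2, Tlr3, Cd14, Nupr1 and Cutal. Tlr3 and Cutal passed the filter through their untreated signals alone, so their direction was fixed by it and they were not tested when either untreated array was left out. On the other side, Fos, an immediate early transcription factor, was near background at 43.8 and 67.6 in untreated cells and 937 to 2425 (median 1674) later, a difference of -4.20 ± 0.18 (limma, adjusted p = 7.74e-07). Mmp10, a matrix metalloproteinase, was near background too, at 19.9 and 17.6 against 52.6 to 3034 (median 832) later. Txnip, which binds thioredoxin and limits glucose uptake, read 498 and 424 at 0 h and 2323 to 9043 (median 6679) later, a difference of -3.45 ± 0.15. The others of the 10 were Egr1, Ddit3, Ccn1, Ckb, Prtn3, Dusp2 and Ramp3. Fos, Mmp10 and Prtn3 passed the filter through their later signals alone, which fixed their direction. Folds of genes near background depend on the 32 added to each signal.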

How the data were processed

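Phycoerythrin-labelled targets were made from total RNA, per the labels. The authors deposited a linear intensity (signal) for 22690 probe sets on each of 8 arrays. How probes were summarised is not stated in the labels or the file. The 2% trimmed mean was 500.2 on all arrays, which shows scaling before deposition. There are no detection calls. The number of arrays, 2 a time, limits the precision.

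The 64 control probe sets, 691 listed with several genes and 1555 with none listed were left out. The other 20380 gave 12393 genes. Of their Entrez identifiers, 20351 were found in the RefSeq table of GRCm38.p6, and 0 symbols changed. Levels are deposited signals. For the comparison, 11505 probe sets had at least 2 of 8 arrays above 144.7, the median of all signals, and the brightest of each gene gave 7340 genes. The values log2(signal + 32) of all 8 arrays were fitted in limma 3.58.1 (R 4.3.3), with 4 residual and 6.37 prior degrees of freedom, and p-values were adjusted over the 7340 genes. The comparison was also run on simulated data over 7340 genes, with independent noise and only 100 genes changed at each of 2 sizes. Of those changed by 1 on the log2 scale 76 of 100 were recovered, and of those changed by 2, 99 of 100. In the same run 9 unchanged genes were called. In the real data 43.5% of genes were called and arrays of the same number were correlated, so these rates may not hold there.

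Replicate numbers are shared by the 4 times. Over genes, the gap between arrays 1 and 2 at one time was correlated with that at another (r from 0.125 to 0.382 for the 6 pairs of times, each above 0.1). Same-numbered arrays were therefore treated as paired in the alternative fit, on the evidence of the data alone.

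The members, the 29 gene lists and the rule for named genes were chosen with earlier results of these data known. The rule takes the 25 brightest genes, every keratin, in each list the 4 brightest, up to 4 near background and up to 3 called, the 10 largest differences each way without overlap, and fixed genes. Of the fixed genes, Muc2, Trp53 and Gapdh were not analysed here, and another is not reported here. Other genes named were chosen after their values were seen. Alternatives were the background limit, probe set choice, pseudocount, filter, scaling, the replicate block, the eBayes options and leaving out each array.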

Additional observations from a re-analysis of the deposited data

Results flagged for a closer look

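One signal outside the genes stood apart in untreated cells. The control probe set named for the murine B1 repeat, a short interspersed element of the mouse genome, read 2451 and 3203 on the 2 untreated arrays and 6347 to 10693 (median 7581) on the 6 later arrays. The later median was 2.68 times the untreated mean, and no later array overlapped the untreated ones. Of the 2 control probe sets named for the B2 repeat, one read 22797 and 28015 at 0 h and 21840 to 32332 later, a ratio of 1.11, and the other read 743.5 and 885 at 0 h and 884 to 1101 later, a ratio of 1.21. Control probe sets were in no comparison, so this difference was not tested. No outlier test was made within the groups of 2 arrays.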

How the results depend on the processing

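The count of genes higher at 0 h ran from 875 to 1524 and that of genes lower from 1013 to 1614 when each array was left out in turn, against 1543 and 1650 with all 8. With the replicate block the counts were 1782 and 1890. Under the other settings they stayed within 1.5 times: 1514 and 1623 with 16 added to each signal, 1582 and 1687 with 64, 1234 and 1360 with no filter, and 1551 and 1645 with quantile normalization. Of 122 named genes called, 28 lost the call in some setting, all 28 of them without an untreated array and 8 also under a setting that leaves out no array. Of the 122, Cdca7, Rpl12, Tlr3 and Cutal were not tested when an untreated array was left out. Of the named genes not called, 14 were called in some setting. For 0 named genes did a call reverse its direction. The differences of some uncalled genes did change sign between settings, that of Epcam from -0.27 to 0.10. The replicate block changed the calls of 12 named genes, each from not called to called, Krt18, Krt19 and Krt7 among them, and of no others. The number of genes near background was 3686 to 5371 under other limits, probe set rules and scalings, and 5060 to 5418 with 1 untreated array. Taking the median over a gene's probe sets lowered many of the highest signals, that of Rpl41 from 27440 to 8120. It also took the signal of Cpt1a, a gene between, from 498.5 to 63.4, below the main background limit of 108.5. Signals near background differ too much between the 2 arrays to be ranked.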

Other observations

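Values were seen before these genes were picked. Of 31 measured Hox genes, which set position along the body axis, 12 lay between and 19 were near background, and none was in the top 10%. The brightest were Hoxd8, with signals of 1528 and 1483, Hoxa9, at 1595 and 1097, Hoxd9, at 939 and 878, and Hoxb6, at 891 and 727. A second Hoxa9 probe set read 225 and 321. The 4 genes of group 13 that were measured, Hoxa13, Hoxb13, Hoxc13 and Hoxd13, were near background at 62.7 and 53.9, 2.4 and 4.8, 9.1 and 10.2 and 5.2 and 12.7. Hoxd9 was 274 to 386 (median 344) on the later arrays, all below the untreated ones, a difference of 1.38 ± 0.15 (limma, adjusted p = 8.65e-05).

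Ppbp, a chemokine stored in platelets, ranked 50 in these epithelial cells, at 14006 and 13470.3, and read 3759 to 15048 (median 9260.1) later, a difference of 0.79 ± 0.14 (limma, adjusted p = 0.00113), with the arrays overlapping. Of 11 annexins, which bind membranes in the presence of calcium, 6 were in the top 10%, led by Anxa1 at 15357 and 13769, Anxa3 at 12424 and 16016 and Anxa2 at 13941 and 13433. Of 22 integrin subunits, the receptors for matrix, 4 were in the top 10%, among them Itga6 at 1948 and 2236 and Itgb1 at 2042 and 2105, and 10 were near background.

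Among the 89 genes of unrelated tissues, 13 were not near background. Most were close to the limit, but Tnnt2, the cardiac troponin T, read 1555 and 1632, and its second probe set read 1091 and 1436. It was 533 to 979 (median 688) later, a difference of 1.10 ± 0.14 (limma, adjusted p = 2.14e-04), with no overlap. Csn3, a milk casein, read 434 and 397, and its second probe set read 2.3 and 40.2, near background. Eif2s3y, a gene of the Y chromosome, read 1147 and 1103, and Xist, the RNA of the inactive X chromosome, was near background at 67.1 and 72.4.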
